A study of Rattus norvegicus with 15 samples.

Results

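The 10 genes described here make, break down and limit the polyamines putrescine, spermidine and spermine in rat testis: Odc1, Amd1, Srm, Sms, Sat1, Paox, the antizymes Oaz1, Oaz2 and Oaz3, and the antizyme inhibitor Azin1. They were chosen by name, as the probe sets that the platform annotation assigns to a single gene symbol among these 10. The array holds 14 such probe sets out of 31042 that are not controls. A total of 13 of them passed a filter on low signals, and all 10 genes had at least 1 tested probe set, out of 10841 genes tested. Where a gene had several, the probe set with the highest mean over all arrays stands for it.

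Testes of irradiated LBNF1 rats (5 arrays) were set against testes of control LBNF1 rats (10 arrays), all from animals of 25 to 27 weeks. The dose in the labels' protocols is 6 Gy to the lower abdomen. The source field places irradiated testes after and control testes before irradiation, and how long after irradiation the testes were taken was not stated. The labels call the arrays biological replicates, without stating that every array stands for its own rat, and p-values here measure only how these samples vary.

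Polyamines are small positively charged molecules that bind nucleic acids and are needed for growth and translation. Ornithine decarboxylase (Odc1) makes putrescine, and spermidine and spermine synthases (Srm, Sms) extend it with aminopropyl groups from S-adenosylmethionine that Amd1 has decarboxylated. Sat1 acetylates spermidine and spermine, and Paox oxidises the acetylated forms back towards putrescine. Antizymes bind ornithine decarboxylase, send it to the proteasome without ubiquitin and restrain polyamine uptake. Their full-length protein needs a ribosomal frameshift that polyamines promote. Azin1 resembles ornithine decarboxylase, lacks its activity and captures antizymes. In mouse, Oaz3 is transcribed in haploid germ cells. The arrays measured RNA only, so neither frameshifting, protein nor polyamine levels were seen.

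The RNA came from whole testes, and the cell type markers moved with the groups. All 6 tested spermatocyte markers (of 10 listed), all 5 round spermatid markers (of 8) and all 9 elongating spermatid markers fell. In every irradiated array, all tested genes of the first 2 lists and 4 elongating spermatid markers were dimmer than the array median. These passed the filter through their control arrays alone, so that a fall was built into their selection. Of all genes tested, 37.9% were lower and 47.6% higher. Summed linear signals of the elongating spermatid list were 1.73 to 3.96 in irradiated arrays and 323 to 468 in control arrays. The summed spermatocyte signals were 0.573 to 0.741 in irradiated and 61.4 to 81.8 in control arrays, and those of round spermatids 0.361 to 0.755 in irradiated and 67.4 to 101 in control arrays. All 8 tested Sertoli cell markers (of 11) rose, with sums of 97.0 to 145 in irradiated and 21.7 to 29.6 in control arrays. All 7 Leydig cell markers rose (71.8 to 91.1 in irradiated, 6.03 to 8.93 in control arrays), as did all 7 macrophage markers (10.7 to 13.3 in irradiated, 1.36 to 2.20 in control arrays). The 6 peritubular myoid markers (16.5 to 23.6 in irradiated, 5.61 to 8.03 in control arrays), the 4 tested endothelial markers (of 5; 2.67 to 3.07 in irradiated, 0.886 to 1.35 in control arrays) and the 2 tested erythroid markers (of 3; 8.73 to 15.1 in irradiated, 2.58 to 4.69 in control arrays) also rose. Of 3 tested spermatogonial markers (of 7), 1 rose and 1 fell (2.33 to 4.43 in irradiated, 3.19 to 3.87 in control arrays), as with the 2 tested lymphocyte markers (of 6; 1.32 to 1.46 in irradiated, 0.634 to 1.38 in control arrays). In each of these lists 1 marker was dimmer than the array median in every irradiated array. It passed the filter through its control arrays alone, so that its selection favoured a fall. Neither of the 2 epididymal markers on the array passed the filter. Dimmer than the array median in every control array were 4 macrophage, 2 endothelial and 2 peritubular myoid markers, so that a rise was built into their selection. In such bulk RNA, fewer cells of a type and less RNA per cell cannot be told apart, and the part of cell composition in the values below was not tested. Correlations of arrays were 0.941 to 0.957 among irradiated, 0.906 to 0.940 among control and 0.645 to 0.687 between groups.

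Polyamine genes differed in both directions between the groups. Irradiated testes had a far lower signal of Oaz3 and lower signals of Paox, Oaz2 and the main probe set of Azin1, and higher signals of Sat1, Amd1, Oaz1, Srm and Sms, while Odc1 did not pass the test. Of the 10 genes, 5 were higher and 4 lower at an adjusted p of 0.05 (limma, Benjamini-Hochberg over 18711 probe sets). The lower genes include Azin1, whose 2 tested probe sets went in opposite directions, and with the mean of all tested probe sets of each gene 6 were higher and 3 lower. The background was high: 85.5% of all genes tested passed, 47.6% as higher and 37.9% as lower in irradiated testes. A call on 9 of 10 genes lies near that background, so the sizes and directions of single genes carry the description. The groups did not overlap in the same number, 9 of the 10, against 69.5% of all genes. Counted by probe set, 7 of the 13 were higher and 5 lower, where 49% of all probe sets were higher, 34.3% lower and 83.4% either, and 12 did not overlap, against 65.5% of all. The median change of the 10 genes was 0.61 on the log2 scale, or 0.40 with signals below the array median set to that median, and the median of all genes tested was 0.20. Quantile normalization moved that median to -0.06 and made Odc1 pass as the sixth higher gene. Directions here are those of the deposited scale. With each array centred on the mean of 8 Sertoli cell markers, the median of all genes was -2.01, and 781 of all 10841 genes were called higher and 9109 lower. Of the 10 genes, Sat1 was then the 1 gene called higher, and 7 were called lower. Changes turned negative for Odc1 (-1.95), Oaz1 (-1.26) and Srm (-1.18). Amd1 (-0.11) and Sms (-0.40) did not pass there, although the second Sms probe set stayed higher as measured (1.76). That probe set was below the array median in all 10 control arrays, so this value is no reliable size. With dim signals at the array median its change on the deposited scale was 0.93, and the centring was not repeated on such values. Oaz3 passed the filter through its control arrays and Sms through its irradiated arrays, so that a difference was built into their selection. Both genes are included in the counts above.

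**Figure D1:**
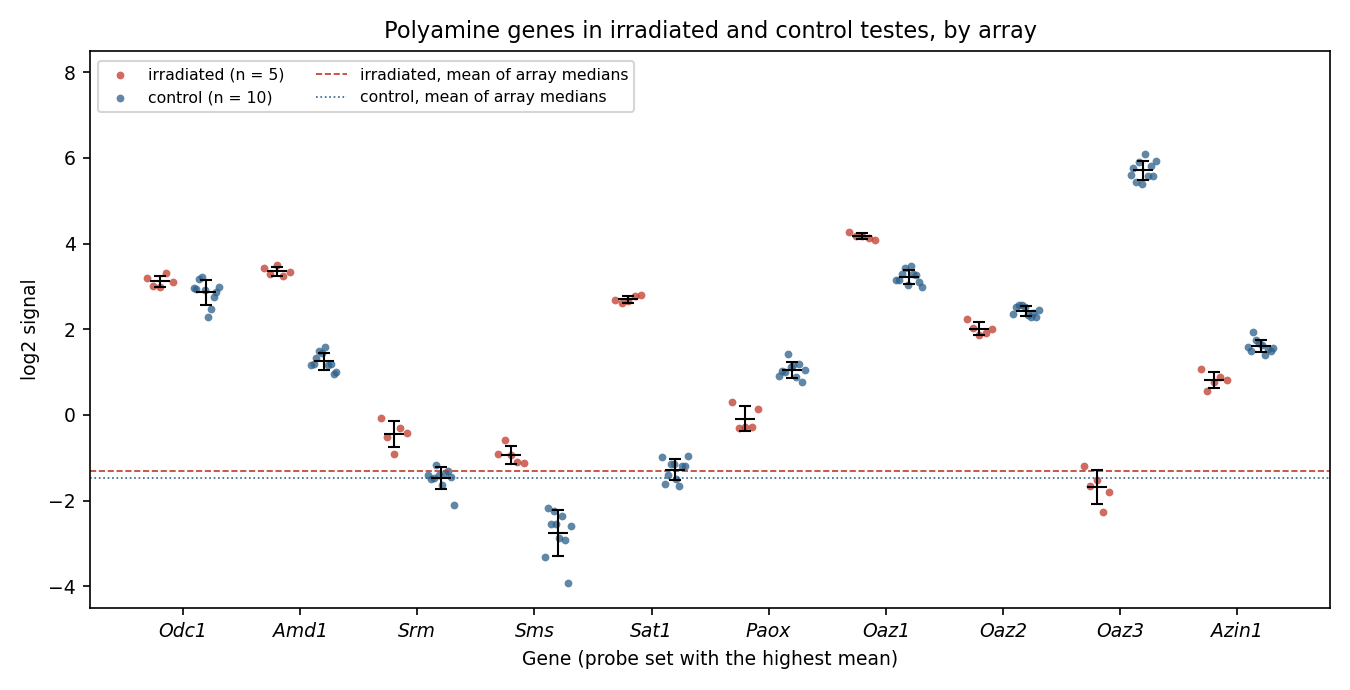
Log2 signal (vertical axis) of the 10 polyamine genes (horizontal axis) in each of 5 irradiated arrays (red, left) and 10 control arrays (blue, right), with black bars for the mean and SD and dashed and dotted lines for the mean array median of each group. Oaz3 lies between -2.27 and -1.19 in irradiated arrays and between 5.40 and 6.09 in control arrays, Sat1 is higher in every irradiated array, and Odc1 overlaps.

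The synthesis enzymes did not move as a block. Odc1 (probe set 1370163_at) makes the first polyamine, putrescine. Its log2 signal was 3.19, 3.01, 2.99, 3.31 and 3.11 in irradiated replicates 1 to 5, and 2.28, 2.93 and 3.23 at the lowest, the median and the highest of the 10 control arrays. The groups overlapped: 4 of 5 irradiated arrays lay inside the control range. The mean was 3.12 ± 0.13 in irradiated testes (SD, n = 5) and 2.86 ± 0.29 in control testes (SD, n = 10), a log2 change of 0.26 with a 95% interval from -0.03 to 0.55 (limma adjusted p = 0.0866). The 3 lowest control values, 2.28, 2.47 and 2.75, belonged to control replicates 6, 7 and 8. In these arrays the actin probe set at the 3' end exceeded the 5' one most, which is a sign of shorter RNA, by 1.89, 1.37 and 1.44 log2 units, against 0.90 to 1.16 in irradiated and 0.65 to 1.05 in the other control arrays. Without these 3 arrays the Odc1 change was 0.11 (adjusted p = 0.278), and the part of RNA quality in it was not tested. Without control replicate 4, the highest of the control arrays, the change was 0.30 and passed (adjusted p = 0.0447).

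Amd1 (1367933_at), S-adenosylmethionine decarboxylase, supplies the aminopropyl groups for both later steps. Its log2 signal was 3.42, 3.29, 3.51, 3.25 and 3.34 in irradiated replicates 1 to 5, and 0.97, 1.19 and 1.58 at the lowest, the median and the highest control array. Every irradiated array lay above every control array. The mean was 3.36 ± 0.10 in irradiated testes (SD, n = 5) and 1.25 ± 0.20 in control testes (SD, n = 10), a rise of 2.11 ± 0.11 (SE) or 4.31-fold (adjusted p = 8.51e-12). Its change was larger than that of Odc1 in the same arrays: the within-array difference Amd1 minus Odc1 was 1.84 higher after irradiation (exact permutation p = 0.000333, the smallest that 3003 splits can give; adjusted p = 0.000416 over 10 pairs), and the groups did not overlap.

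Spermidine synthase (Srm, 1367834_at) had log2 signals of -0.08, -0.52, -0.91, -0.29 and -0.41 in irradiated replicates 1 to 5, and -2.11, -1.42 and -1.17 at the lowest, the median and the highest control array. All irradiated arrays were higher, but 5 of the 10 control arrays lay below their own array median, where a signal has no reliable size. The mean was -0.44 ± 0.31 in irradiated testes (SD, n = 5) and -1.48 ± 0.25 in control testes (SD, n = 10). With signals below the array median set to that median, Srm rose by at least 0.94 on the log2 scale (adjusted p = 5.01e-06 from the measured values).

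Spermine synthase (Sms) is read by 2 probe sets, both below the array median in all 10 control arrays and above it in all 5 irradiated arrays. Probe set 1394243_at had log2 signals of -0.90, -0.59, -0.93, -1.10 and -1.11 in irradiated replicates 1 to 5, against at most -2.18 in control arrays, and was at least 1.45-fold higher in irradiated testes (adjusted p = 1.71e-06). Probe set 1375889_at had -0.50, -0.75, -0.45, -0.50 and -0.49 in irradiated replicates 1 to 5, against at most -2.83 in control arrays, and was at least 1.90-fold higher (adjusted p = 1.64e-07). Both probe sets give the same direction and only a lower bound on its size. Both reached the filter through the irradiated arrays alone, so that the direction was built into their selection and the p-values are no support for it. Whether Sms changed more than Srm was not settled. The within-array difference Sms minus Srm was higher by 0.78 in irradiated arrays as measured (exact permutation p = 0.0193, adjusted p = 0.0193) and by -0.40 with dim signals set to the array median (adjusted p = 0.0113), and the measured groups overlapped. With the mean of both Sms probe sets it was higher by 1.86 (exact permutation, adjusted p = 0.000416), again from dim control signals.

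The breakdown enzymes Sat1 and Paox went in opposite directions. Sat1 (1371774_at) encodes spermidine/spermine N1-acetyltransferase, the inducible enzyme that marks polyamines for export or oxidation. Its log2 signal was 2.67, 2.61, 2.65, 2.77 and 2.79 in irradiated replicates 1 to 5, and -1.65, -1.19 and -0.95 at the lowest, the median and the highest control array. The irradiated arrays lay within 0.2 log2 units of each other and far above every control array, of which 3 lay below their array median. The mean was 2.70 ± 0.08 in irradiated testes (SD, n = 5) and -1.27 ± 0.25 in control testes (SD, n = 10). Sat1 rose by 3.97 ± 0.12 (SE) on the log2 scale, 15.7-fold in measured means (adjusted p = 1.20e-14). In measured means 139 of 10841 genes (1.28%) had a larger rise, some of them from control signals below the array median. With the Sertoli centring Sat1 was still higher, by 1.75 (adjusted p = 1.46e-09).

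Paox (1372212_at), the peroxisomal oxidase that acts on acetylated polyamines, had log2 signals of 0.31, -0.31, -0.27, -0.28 and 0.13 in irradiated replicates 1 to 5, and 0.78, 1.04 and 1.43 at the lowest, the median and the highest control array. Every irradiated array lay below every control array, and all 15 signals were above the array medians. The mean was -0.09 ± 0.29 in irradiated testes (SD, n = 5) and 1.06 ± 0.19 in control testes (SD, n = 10), a change of -1.14 ± 0.12 (SE) or 2.21-fold lower (adjusted p = 1.95e-07). The within-array difference Sat1 minus Paox was 5.11 higher in irradiated than in control arrays, with no overlap (exact permutation p = 0.000333, adjusted p = 0.000416). Sat1 minus Odc1 was higher by 3.71, with irradiated arrays from 3.60 to 3.81 and control arrays from -0.43 to 0.35 around the control mean (exact permutation p = 0.000333, adjusted p = 0.000416).

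The antizymes differed most among themselves, and their promoters are shown so that the gene with the largest fall can be read beside its paralogs. The sequences are RefSeq's for the build GRCr8, from 250 bases before to 50 bases after the annotated start, 5' to 3' on the gene's strand. The windows are chr7:9536941-9537240 on the minus strand for Oaz1, chr8:75094567-75094866 on the plus strand for Oaz2, chr2:184765127-184765426 on the minus strand for Oaz3, and chrX:44007839-44008138 on the plus strand for Sat1, shown as a gene with a large rise. Capitals mark, on either strand, TATAA (the TATA box core), CACGTG (an E-box), TGACG (the core of the cyclic AMP response element), GGGCGG (a GC box) and CCAAT.
Oaz1: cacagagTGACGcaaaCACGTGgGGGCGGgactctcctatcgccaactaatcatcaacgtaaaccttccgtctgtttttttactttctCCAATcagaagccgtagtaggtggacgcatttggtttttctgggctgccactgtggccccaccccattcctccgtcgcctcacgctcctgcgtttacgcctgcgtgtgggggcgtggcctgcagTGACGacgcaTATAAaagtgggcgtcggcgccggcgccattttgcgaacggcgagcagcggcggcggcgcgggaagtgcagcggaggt
Oaz2: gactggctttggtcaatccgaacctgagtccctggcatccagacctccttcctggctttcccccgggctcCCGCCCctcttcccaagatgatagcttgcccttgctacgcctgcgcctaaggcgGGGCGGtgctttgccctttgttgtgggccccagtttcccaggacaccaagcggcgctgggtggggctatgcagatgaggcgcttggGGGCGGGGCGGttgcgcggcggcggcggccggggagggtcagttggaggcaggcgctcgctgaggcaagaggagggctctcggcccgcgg
Oaz3: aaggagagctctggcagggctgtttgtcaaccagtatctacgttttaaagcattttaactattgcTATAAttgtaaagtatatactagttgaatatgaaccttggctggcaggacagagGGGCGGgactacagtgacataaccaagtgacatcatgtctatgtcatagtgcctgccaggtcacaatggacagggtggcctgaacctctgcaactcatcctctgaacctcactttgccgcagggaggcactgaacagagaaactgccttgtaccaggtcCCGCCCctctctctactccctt
Sat1: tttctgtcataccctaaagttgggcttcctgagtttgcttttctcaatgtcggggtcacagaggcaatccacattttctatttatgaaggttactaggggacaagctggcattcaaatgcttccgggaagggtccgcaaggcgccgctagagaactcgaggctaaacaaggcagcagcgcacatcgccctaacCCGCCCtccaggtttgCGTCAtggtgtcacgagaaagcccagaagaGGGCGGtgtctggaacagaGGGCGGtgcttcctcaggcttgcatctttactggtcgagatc

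The Oaz3 window held 4 CG dinucleotides and 48.3% G and C, against 31 and 60.0% in Oaz1 and 23 and 68.3% in Oaz2. Over all 33469 promoters in the table the medians were 7 CG dinucleotides and 51.7%. TATAA lay at -28 to -24 from the start in Oaz1 and at -185 to -181 in Oaz3, was not found in Oaz2, and was present in 26.2% of all promoters of this length. TGACG was found 2 times in Oaz1, at -243 to -239 and at -38 to -34, and in 21.2% of all promoters. It was not found in the Oaz2 and Oaz3 windows. The GC box GGGCGG, present in 33.1% of all promoters, was found 1 time in Oaz1, 4 times in Oaz2 (2 of them overlapping by 1 base) and 2 times in Oaz3. The E-box CACGTG (6.42% of all promoters) and CCAAT (37.5%) were found in Oaz1 only among the 3 antizymes. The Sat1 window held 14 CG dinucleotides, 3 GC boxes and TGACG on the minus strand at -41 to -37. Promoters were found for 9 of the 10 genes. A match is a description of letters and not of a bound site.

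Oaz3 (1379993_at), the antizyme of haploid germ cells, had log2 signals of -1.19, -1.66, -1.52, -2.27 and -1.79 in irradiated replicates 1 to 5, and 5.40, 5.69 and 6.09 at the lowest, the median and the highest control array. The groups were more than 6 log2 units apart at their nearest arrays, and 4 of the 5 irradiated signals lay below the array median. The mean was -1.69 ± 0.39 in irradiated testes (SD, n = 5) and 5.71 ± 0.23 in control testes (SD, n = 10). With signals below the array median set to that median, the log2 change was at most -7.01, a fall of at least 129-fold (adjusted p = 1.42e-16 from the measured values). Oaz3 reached the filter through its control arrays, so that a fall was built into its selection and the p-value is no support for its direction. Only 81 of 10841 genes (0.747%) had a larger measured fall, an order that rests in part on signals below the array median.

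Oaz1 (1372241_at), the antizyme of most tissues, moved the other way. Its log2 signal was 4.27, 4.18, 4.19, 4.14 and 4.09 in irradiated replicates 1 to 5, and 2.98, 3.21 and 3.47 at the lowest, the median and the highest control array. No irradiated array overlapped with a control array. The mean was 4.17 ± 0.06 in irradiated testes (SD, n = 5) and 3.22 ± 0.16 in control testes (SD, n = 10), a rise of 0.96 ± 0.09 (SE) or 1.94-fold (adjusted p = 2.81e-08).

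Oaz2, a second widely expressed antizyme, is read by 2 probe sets that both fell, by different amounts. Probe set 1388454_at had log2 signals of 2.25, 2.04, 1.86, 1.91 and 2.02 in irradiated replicates 1 to 5, and 2.28, 2.42 and 2.58 at the lowest, the median and the highest control array. The groups lay next to each other without overlap, and the change was -0.41 ± 0.08 (SE; adjusted p = 0.000242). Probe set 1374129_at had 0.52, 0.43, 0.11, 0.50 and 0.49 in irradiated replicates 1 to 5, and 2.25, 2.54 and 2.88 at the lowest, the median and the highest control array. These groups were more than 1.5 log2 units apart, and the change was -2.15 ± 0.11 (SE), 4.45-fold lower (adjusted p = 1.63e-11). The within-array difference between the 2 probe sets, 1374129_at minus 1388454_at, changed by -1.74 after irradiation (exact permutation p = 0.000333, adjusted p = 0.0005 over 3 genes, a comparison chosen after the values were seen). Which transcripts each probe set reads was not stated.

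Set against each other within arrays, which removes the scaling of the arrays, the 3 antizymes changed unequally. Oaz3 minus Oaz1 changed by -8.35 after irradiation and Oaz2 minus Oaz1 by -1.37, each with no overlap between groups (exact permutation p = 0.000333 and adjusted p = 0.000416 for both). With dim signals set to the array median the Oaz3 difference was -7.96. Because Oaz3 reached the filter through its control arrays, a fall of Oaz3 minus Oaz1 was built into the selection. Its p-values and lack of overlap are no support for its direction. Odc1, the target of the antizymes, changed by -0.69 relative to Oaz1 (exact permutation p = 0.00366, adjusted p = 0.00407), although the groups overlapped and the call was lost with control replicates 6 to 10 alone (-0.50, adjusted p = 0.0635). Relative to Oaz2, Odc1 rose by 0.68 (exact permutation p = 0.000333, adjusted p = 0.000416). The mean of both Oaz2 probe sets gave larger sizes in the same directions, -2.24 for Oaz2 minus Oaz1 and 1.55 for Odc1 minus Oaz2. Of the 10 pairs examined, 10 passed as measured and 8 did not overlap. The share over other pairs of genes was not computed. Among single genes 85.5% passed limma and 69.5% did not overlap, so the counts of pairs are no result about these genes.

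**Figure D2:**
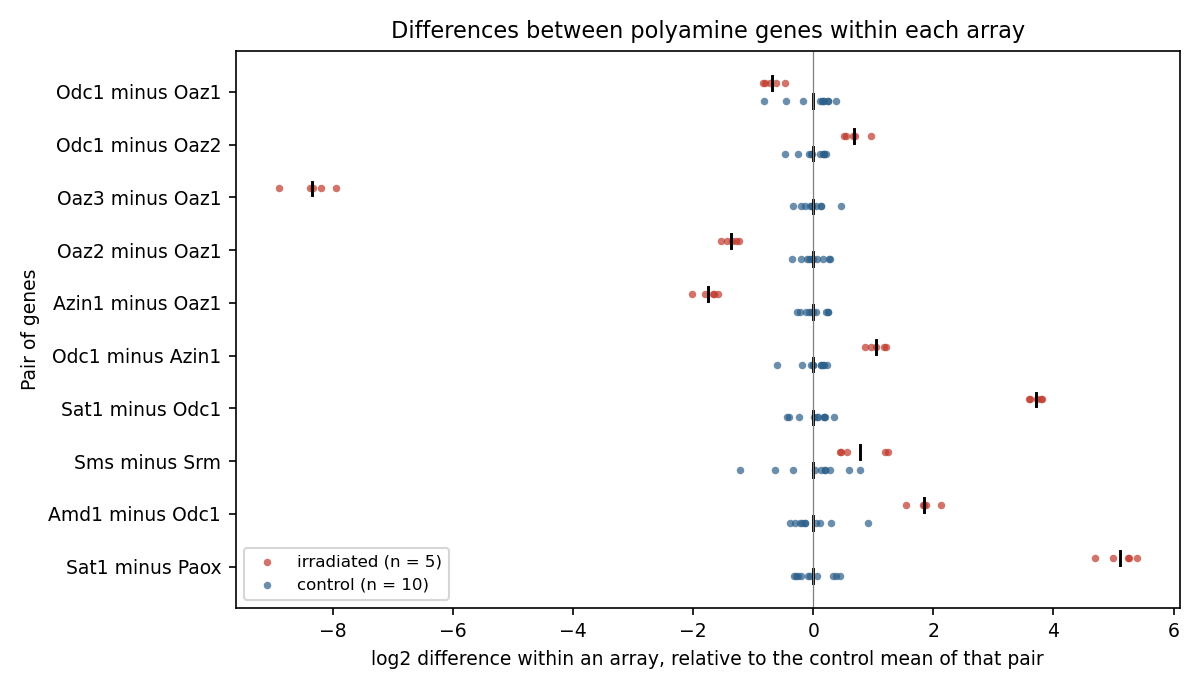
Log2 difference between 2 polyamine genes within each array, relative to the control mean of that pair (horizontal axis), for 10 pairs (vertical axis), in 5 irradiated arrays (red, upper row of each pair) and 10 control arrays (blue, lower row), with a black line at each mean. Oaz3 minus Oaz1 changes by -8.35 and Sat1 minus Paox by 5.11 in irradiated against control arrays, whereas Odc1 minus Oaz1 and Sms minus Srm overlap.

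The antizyme inhibitor Azin1 gave opposite answers from its 2 tested probe sets. Probe set 1370575_a_at, which stands for the gene because of its higher mean, had log2 signals of 1.07, 0.55, 0.78, 0.88 and 0.81 in irradiated replicates 1 to 5, and 1.41, 1.58 and 1.93 at the lowest, the median and the highest control array. It fell by 0.79 ± 0.10 (SE; adjusted p = 1.12e-06). Probe set 1370191_at had 1.32, 0.92, 0.97, 1.05 and 1.04 in irradiated replicates 1 to 5, and -1.16, -0.41 and -0.11 at the lowest, the median and the highest control array. It rose by 1.50 ± 0.14 (SE), 2.82-fold (adjusted p = 2.88e-08), on the deposited scale, and changed by -0.72 with the Sertoli centring. In both probe sets no irradiated array overlapped with a control array. The difference 1370191_at minus 1370575_a_at was 2.29 higher in irradiated arrays, from 2.21 to 2.41 around the control mean, against -0.69 to 0.44 in control arrays (exact permutation p = 0.000333, adjusted p = 0.0005, chosen after the values were seen). The ending _a_at is the maker's mark for a probe set shared by several transcripts of the same gene. The third probe set, 1379003_at, lay below the array median in all 15 arrays and was not tested. No single direction can therefore be given for Azin1, and the mean of its 2 tested probe sets rose by 0.35 (adjusted p = 0.0029). Differences of Azin1 from other genes take the same doubt: Azin1 minus Oaz1 changed by -1.75, and by -0.60 with the mean of both probe sets (exact permutation, adjusted p = 0.000416 both times). Odc1 minus Azin1 was higher by 1.05 (exact permutation, adjusted p = 0.000416), and -0.090 with the mean (exact permutation, adjusted p = 0.537).

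**Figure D3:**
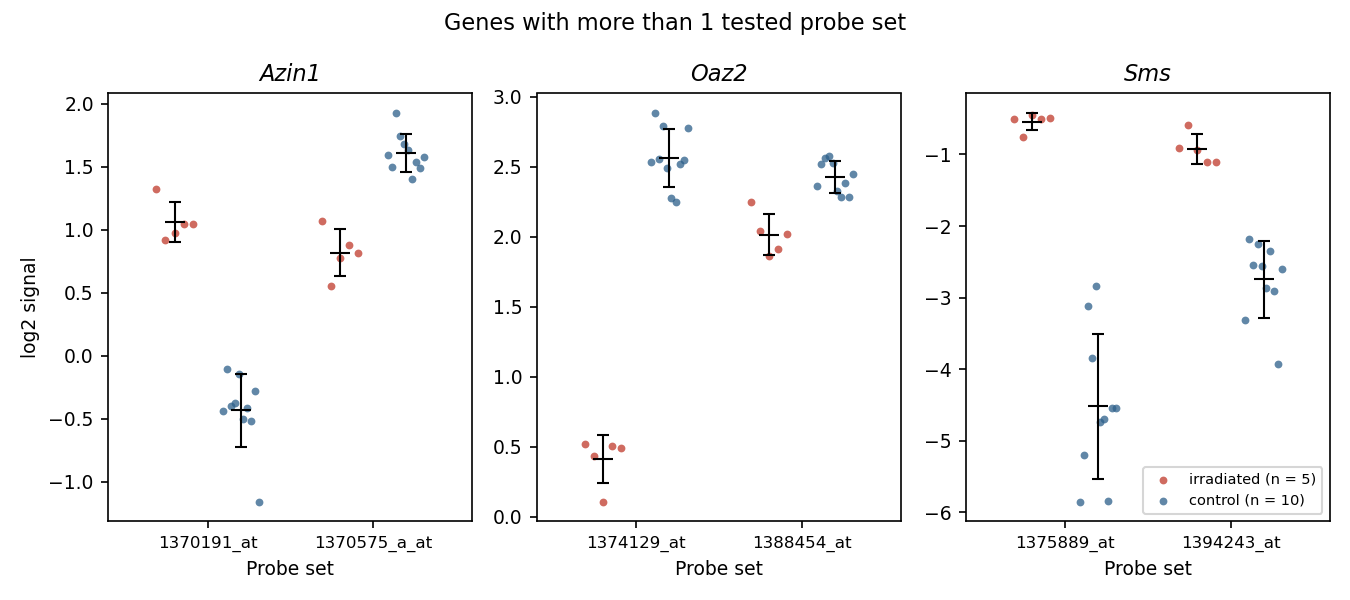
Log2 signal (vertical axes, which differ between panels) of the 2 tested probe sets (horizontal axis) of Azin1, Oaz2 and Sms in 5 irradiated arrays (red, left) and 10 control arrays (blue, right), with black bars for the mean and SD. The Azin1 probe sets move in opposite directions, by 1.50 and -0.79, those of Oaz2 by -2.15 and -0.41, and those of Sms both rise.

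Azin2, a second antizyme inhibitor that in mouse and human is most abundant in testis and brain, was looked at with the wider pathway. Its tested probe set (1383690_at) averaged -0.27 ± 0.28 in irradiated testes (SD, n = 5) and 3.92 ± 0.22 in control testes (SD, n = 10), a change of -4.18 ± 0.13 (SE) or 18.2-fold lower (adjusted p = 1.98e-14). All its signals lay above the array medians, so the size of this fall was measured. Its other probe set was below the array median in all arrays.

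The genes around the polyamine pathway were described from a list of 48 genes in 6 groups. Of these, 33 were tested, 24 rose, 7 fell and 2 did not pass (limma), against the background of 47.6% higher and 37.9% lower among all genes. Their median change was 1.16 on the log2 scale, or 0.67 with dim signals at the array median, beside 0.20 for all genes. The groups did not overlap in 24 of the 33, against 69.5% of all genes. With the Sertoli centring 5 of the 33 were higher (Oat, Cav1, Aoc3, Sat2 and Myc) and 22 lower, so most of the rises below hold for the deposited scale. The centred calls of Myc and Sat2 used measured signals, which lay below the array median in 10 and 7 of the 10 control arrays. With dim signals at the array median their changes on the deposited scale were 0.67 and 2.39. Whether they stay higher with both dim signals at the median and the Sertoli centring was not tested. Of all 10841 genes, 781 were higher and 9109 lower with that centring. The median change of the list was then -1.05, beside -2.01 for all genes. Slc22a3, Myc, Adi1, Mri1 and Sat2 reached the filter only with their irradiated arrays, and Arg2 only with its control arrays, so that their selection favoured the direction they show.

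The genes of hypusination fell. Spermidine donates the group that turns a lysine of the translation factor eIF5A into hypusine, in 2 steps run by Dhps and Dohh. All 4 genes of this group were tested, and all 4 were lower in irradiated testes on the deposited scale and with quantile and median scaling. Among all 10841 genes, 4111, 4785 and 4511 were lower with these 3 scalings. The 4 genes were also lower with the Sertoli centring, but 9109 of all genes were lower there, so it is no further support. The changes were -0.64 ± 0.12 (SE) for Eif5a, -1.33 ± 0.11 for its paralog Eif5a2, -0.82 ± 0.15 for Dhps and -0.53 ± 0.17 for Dohh. Eif5a averaged 3.17 ± 0.25 in irradiated (SD, n = 5) and 3.81 ± 0.18 in control testes (SD, n = 10), with no overlap. Dhps and Dohh overlapped in 1 irradiated array each. The Dohh signals were 0.41, 0.10, 0.17, 0.07 and -0.91 in irradiated replicates 1 to 5, so that the size of its change rests in part on replicate 5. The second probe set of Eif5a2 changed less, by -0.30 (adjusted p = 0.00606).

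Genes that supply or recycle the methionine part of polyamines were mostly higher. Of 13 listed, 10 were tested, 8 rose and 2 did not pass on the deposited scale. With the Sertoli centring, where 9109 of all 10841 genes were lower, 8 fell and none rose. The subunits of S-adenosylmethionine synthetase, Mat2a and Mat2b, rose by 1.65 ± 0.08 and 2.09 ± 0.07 (SE), and a second Mat2a probe set by 0.84 ± 0.22. In that second probe set control replicates 6, 7 and 8, the arrays with the largest actin excess, were the lowest (-0.78, -0.70 and -0.93). The part of RNA quality in its size was not tested. Mtap, which takes up the methylthioadenosine that spermidine and spermine synthesis leave behind, rose by 0.68 ± 0.14. Its other probe sets, 1378462_at and 1397644_at, were dim in every control array and at least 1.70-fold and 2.33-fold higher. Both reached the filter through their irradiated arrays alone. In the salvage steps that follow, Apip rose by 1.31 ± 0.11. Mri1 and Adi1 were at least 1.33-fold and 3.26-fold higher, given as bounds because both were dimmer than the array median in the control mean. Enoph1, of the same steps, did not pass (-0.09, adjusted p = 0.454). S-adenosylhomocysteine hydrolase (Ahcy) rose by 0.40 ± 0.11 and its relative Ahcyl1 by 1.99 ± 0.08. Other Ahcyl1 probe sets rose less, 1383004_at by 1.48 ± 0.17 and 1395273_at by 0.84 ± 0.21. In 1383004_at control replicates 6, 7 and 8 were again the lowest. The methionine synthase reductase Mtrr did not pass (0.21, adjusted p = 0.095), nor did its other probe set (0.11, adjusted p = 0.414).

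Around ornithine, 3 of 5 listed genes were tested, Azin2 among them. Oat, the mitochondrial aminotransferase that consumes ornithine, rose by 2.83 ± 0.24 (SE). Its lowest control signals were those of replicates 6, 7 and 8 (-1.75, -1.55 and -1.50), and the part of RNA quality in its size was not tested. The arginase Arg2 was at least 1.09-fold lower, given as a bound because its irradiated mean was dim, and its groups overlapped (adjusted p = 0.0136). Arg1 and Agmat did not pass the filter.

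All 7 tested transport genes (of 13) rose on the deposited scale, against 1 higher and 5 lower with the Sertoli centring, where 9109 of all 10841 genes were lower. They include Slc3a2, a heavy chain of amino acid exchangers that is linked to polyamine export (1.29 ± 0.10, SE), the cationic amino acid transporter Slc7a1 (0.94 ± 0.11, and 2.09 ± 0.19 in a second probe set), the lysosomal polyamine exporter Atp13a2 (1.16 ± 0.12) and the vesicular polyamine transporter Slc18b1 (0.63 ± 0.11). Cav1, a caveolin that endothelial and smooth muscle cells also carry, rose by 2.44 ± 0.10, and by 2.28 ± 0.13 in a second probe set. A further Cav1 probe set, dim in every control array, was at least 1.77-fold higher. The proteoglycan Gpc1 rose by 0.62 ± 0.16. The organic cation transporter Slc22a3 was below the array median in every control array and was at least 1.39-fold higher.

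All 4 tested genes of amine oxidation and acetylation (of 8) rose on the deposited scale, where 47.6% of all genes tested were higher. With the Sertoli centring 2 of them, Aoc3 and Sat2, were higher, where 781 of all 10841 genes were. Sat2 reached the filter only with its irradiated arrays, so that its selection favoured a rise. Aoc3, an amine oxidase of vessels and smooth muscle, rose by 2.74 ± 0.11 (SE), monoamine oxidase Maob by 2.08 ± 0.08, and Aldh9a1, an aldehyde dehydrogenase that acts on the aldehyde made from putrescine, by 1.94 ± 0.12. A second Aoc3 probe set, dim in every control array, was at least 2.30-fold higher. Sat2, a relative of Sat1, rose by at least 2.39. Spermine oxidase (Smox) lay below the array median in all 15 arrays and was not tested.

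Among regulators, Myc, a transcription factor that activates Odc1, lay below the array median in every control array and was at least 1.59-fold higher. Its partner Max rose by 2.06 ± 0.09 (SE) on the deposited scale. A second Max probe set, dim in 7 of the 10 control arrays, rose by at least 0.76. Mxd1, which competes for Max, fell by 0.94 ± 0.09. Nqo1, which binds ornithine decarboxylase and delays its breakdown, rose by 1.17 ± 0.12, and the proteasome subunit Psmd4 by 0.53 ± 0.11. Apart from the 6 genes whose selection favoured a direction, all limma adjusted p-values of the changed genes of the wider pathway were 0.00740 or smaller.

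**Figure D4:**
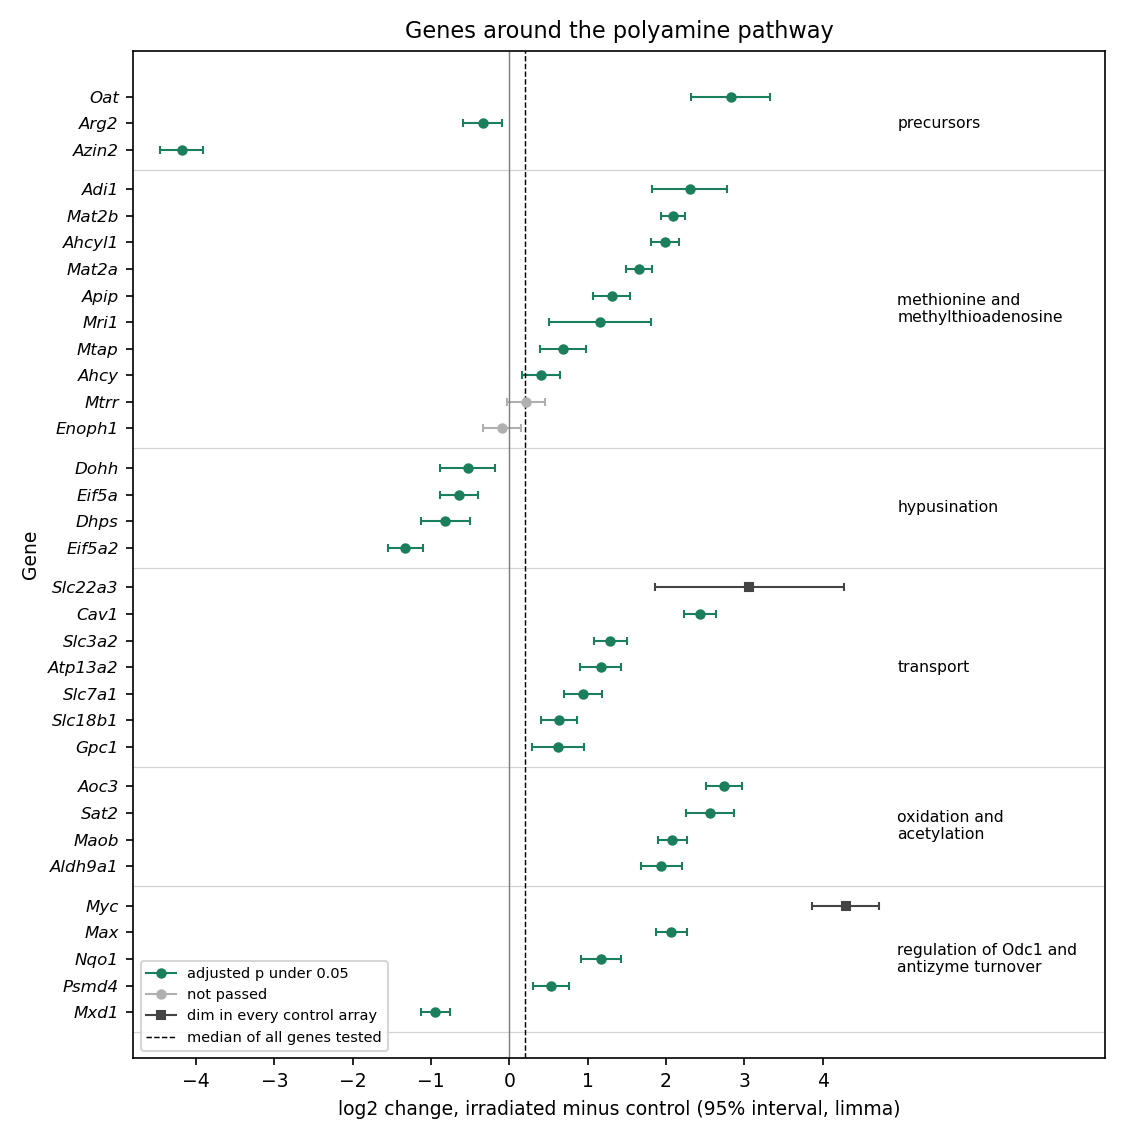
Log2 change, irradiated minus control, with its 95% interval (horizontal axis) for the 33 tested genes of the wider polyamine pathway (vertical axis), in 6 groups, on the deposited scale. The 4 hypusination genes lie below 0, the 7 transport genes and the 4 oxidation and acetylation genes above 0, and Azin2 is lowest at -4.18. Squares mark Slc22a3 and Myc, which were below the array median in every control array, so that their measured change is no size.

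The genes with the pattern most like those of Oaz3, Odc1 and Sat1 were found by the root mean square distance over all 15 arrays, after each gene was set relative to its own control mean. For Oaz3 they were Odf1 (0.22 log2 units), Tmbim7 (0.23), Hmgb4 (0.24), Ybx2 (0.25) and Ddx25 (0.26), of which Odf1 alone was not dim in the irradiated arrays. For Odc1 they were Osbpl11 (0.10), Erh (0.11), Tsg101 (0.12), Aldh3a2 (0.12) and Dicer1 (0.13). For Sat1 they were Igdcc4 (0.18), Lgals3bp (0.21), Cd48 (0.24), Elovl5 (0.24) and Adh1c (0.25). These distances describe 10841 genes ranked on 15 arrays and carry no test.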

How the data were processed

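The deposited table holds log2 signals of 31099 probe sets in 15 arrays. Its 57 control probe sets were left out of the tests. MAS5 made the signals, per the submitters' processing notes, and labelling started from 10 µg of total RNA, per the labels' protocols. How they were scaled and logged was not stated. The deposited values fit base 2, since hybridisation spike-ins rose by 0.83 to 0.97 units per doubling. The zero point is unknown. The precision is set by the number of arrays, which have no depth in reads.

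Gene symbols came from the platform annotation of 2016. A probe set was tested if it reached its array's median (-1.38 to -1.26 in irradiated, -1.61 to -1.37 in control arrays) in at least 5 arrays, which left 18711. Irradiated and control arrays were compared by limma 3.58.1 (lmFit and eBayes, 2-sided, without covariates; R 4.3.3), with Benjamini-Hochberg adjustment over all tested probe sets. All adjusted p-values of genes come from this model. Those of within-array differences come from exact permutation, a 2-sided test over the arrays, with Benjamini-Hochberg adjustment over the pairs compared. Group values are mean ± SD, and errors of changes are limma's moderated SE. The script was tested on simulated data. Dim signals are those below the array median, and sizes given as "at least" or "at most" set such signals of the dimmer group to the array median. Named were every member, every tested gene of the wider list, and for 3 members the 5 nearest patterns. The members, lists and tests were chosen with earlier results of these data known. Alternatives were other array scalings, filters, a pseudocount of 0.5, probe set averaging, other eBayes priors, subsets of control arrays, each array left out, and the replicate number as a block.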

Additional observations from a re-analysis of the deposited data

Results flagged for a closer look

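In 14 probe sets and both groups, 28 sets of values were searched for a lowest or highest array far from the others, and 4 were found. Chance gives about 1 in 20. Irradiated replicate 3 was lowest in Oaz2 probe set 1374129_at, at 0.11 beside the nearest value of 0.43. Irradiated replicate 2 was lowest in Sms probe set 1375889_at, at -0.75 beside -0.50. Control replicate 10 was lowest in Azin1 probe set 1370191_at, at -1.16 beside -0.52, and in Srm, at -2.11 beside -1.63. No call on these 4 probe sets was lost when the array was left out.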

How the results depend on the processing

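Of 663 values recomputed under alternatives, 631 kept their direction and side of the threshold or, for counts, stayed within 1.5 times. Of the other 32, the replicate block and centring arrays on 8 Sertoli cell markers gave 10 each. The Sertoli centring moved the median change of all genes to -2.01, against 0.20 as deposited and -0.06 after quantile normalization. With that centring 1 member was higher and 7 lower, and 5 pathway genes were higher and 22 lower, beside 781 higher and 9109 lower of all 10841 genes. The change was -1.95 for Odc1, -1.26 for Oaz1, -0.72 for Azin1 probe set 1370191_at, -1.18 for Srm, -0.40 for Sms probe set 1394243_at and -0.11 for Amd1. The filter at the 75th percentile left 3 members higher, since fewer probe sets were tested. Odc1 passed after quantile normalization (0.41, adjusted p = 0.00535), with control replicates 6 to 10 alone (0.45, adjusted p = 0.0132) and without control replicate 4 (0.30). The Azin1 change was 0.35 with the mean of its tested probe sets, and Odc1 minus Azin1 was then -0.090. Sms minus Srm was -0.40 with dim signals at the array median and 0.12 with the pseudocount (exact permutation, adjusted p = 0.221). It was 0.88 with control replicates 6 to 10 alone (exact permutation, adjusted p = 0.0617), where Odc1 minus Oaz1 was -0.50. With the mean of all tested probe sets Sms minus Srm was 1.86 (exact permutation, adjusted p = 0.000416). Leaving out each array gave 0.65 to 0.87 for Sms minus Srm, whose call was lost without irradiated replicate 2 or 3. The causes of these changes were not tested.

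The replicate numbers did not pair the arrays: same-numbered arrays correlated at -0.05 to 0.07 in their deviations, and only irradiated replicate 5 correlated best with its own number. With the replicate number as a block over replicates 1 to 5, no member's call changed, and 5 members were higher and 4 lower. In the paired sign-flip test of the within-array differences, 5 pairs cannot give an exact p below 0.0625, so no call was possible. The paired changes were -0.88 for Odc1 minus Oaz1, 0.57 for Odc1 minus Oaz2, -8.27 for Oaz3 minus Oaz1, -1.46 for Oaz2 minus Oaz1, -1.83 for Azin1 minus Oaz1, 0.95 for Odc1 minus Azin1, 3.87 for Sat1 minus Odc1, 0.69 for Sms minus Srm, 1.96 for Amd1 minus Odc1 and 5.14 for Sat1 minus Paox. Genes near the array median are limited by signal over background.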
